A study of Mus musculus with 48 samples.

Results

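Slurp1, Klk11, Tie1, Spink2, 4930550L24Rik, Tcl1, Khdc3 and Gpa33 are 8 of the 24264 transcripts counted in 48 mouse RNA libraries. They were picked because their read counts were far higher in MKOS than in OKMS cells that were E-CAD+ and Nanog-GFP-, so that contrast is given here as a description, with no test. Slurp1 is a secreted protein of the Ly6/uPAR family. Klk11 is a secreted serine protease of the kallikrein family, and Spink2 is a Kazal-type serine protease inhibitor. Tie1 is a receptor tyrosine kinase of the angiopoietin pathway. 4930550L24Rik is a gene of the X chromosome that RefSeq also lists as mage-k1. Tcl1 binds and co-activates AKT kinases, Khdc3 belongs to the subcortical maternal complex of the oocyte, and Gpa33 is a cell-surface protein of the immunoglobulin superfamily.

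MKOS and OKMS are polycistronic cassettes that encode c-Myc, Klf4, Oct4 and Sox2 in different orders, and the Klf4 of OKMS lacks N-terminal residues that MKOS carries. Each was placed under doxycycline control, with rtTA driven by a CAG promoter, in an intron of Sp3 in TNG ESCs, which carry a GFP reporter at the Nanog locus, and transgenic (Tg) MEFs were taken from chimeric embryos made with these ESCs and mixed with WT MEFs for reprogramming. Cells were cultured with doxycycline and vitamin C and sorted on day 10, while the culture notes give 10 or 15 days. The gates were CD44-/ICAM1- (2NG-) or CD44-/ICAM1+ (3NG-) without Nanog-GFP, and CD44-/ICAM1+ with Nanog-GFP (3NG+). The labels give the 3NG+ cells as E-CAD+ too. The 8 sorted populations have 3 libraries each: E-CAD+ 2NG-, E-CAD+ 3NG- and 3NG+ cells of each cassette, and E-CAD- 2NG- and 3NG- cells of OKMS alone. The other 12 conditions have 2 libraries each: WT, MKOS and OKMS MEFs, MKOS and OKMS iPSC clones without doxycycline (-dox) or in 2i, the iPSC line D6 with a single MKOS integration, and 4 ESC lines, namely E14, which are WT, the parental TNG line, and its TNG OKMS and TNG MKOS derivatives with the cassette uninduced. The labels do not say whether the libraries of a condition came from separate cultures, so that p-values measure the spread between libraries, which may be technical.

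Libraries held 1429717 to 14174725 reads on transcripts, and levels are given as CPM, the reads of a gene scaled to all reads of its library on transcripts. The shallowest library was OKMS 3NG+ replicate 2, where 1 read was 0.699 CPM. The labels were checked with 4 genes. Cdh1, which encodes E-CAD, was at 116 to 182 CPM in the 12 E-CAD+ NG- libraries, 4.24 to 51.5 CPM in the E-CAD- ones and at most 0.687 CPM in MEFs. In 3NG+ cells Cdh1 was at 62.6 to 91.5 CPM in MKOS and at 106 to 151 CPM in OKMS. Nanog had no read in MEFs and was at 51.1 to 97.3 CPM in 3NG+ cells. It was also read in the Nanog-GFP- cells, at 16.2 to 75.7 CPM in MKOS and 17.9 to 52.8 CPM in OKMS E-CAD+ NG- cells, which overlapped with the 3NG+ range. Zfp42, a marker of ESCs, and Col1a2, a collagen of fibroblasts, stood at means of 828 and 0.196 CPM in ESCs and of 0.698 and 1102 CPM in MEFs. In such bulk samples, fewer cells of a type and less RNA per cell cannot be told apart.

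In reprogramming, fibroblast genes are shut down, epithelial genes such as Cdh1 are switched on, and the pluripotency network is installed last. Some genes are switched on only in intermediates and are silent again in iPSCs, whereas others are switched on and stay on. Slurp1, Klk11 and relatives of Spink2 are known from skin and other epithelia, Tie1 from endothelium, Spink2 from the male germ line, Gpa33 from the intestine, and Tcl1 and Khdc3 from oocytes, early embryos and ESCs.

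The 8 genes lie on 8 chromosomes (GRCm38). Slurp1 is at chr15:74726644-74728023 on the minus strand, Klk11 at chr7:43774617-43779263 on the plus strand, Tie1 at chr4:118471191-118489849 on the minus strand and Spink2 at chr5:77205106-77216258 on the minus strand. 4930550L24Rik is at chrX:58909356-58920305, Khdc3 at chr9:73101381-73106631 and Gpa33 at chr1:166130221-166166510, all on the plus strand, and Tcl1 is at chr12:105216753-105222737 on the minus strand. All are protein-coding. The symbol Klk11 is also an older name of Klk1b11, but the file's position is that of Klk11. The reads were assigned uniquely, in 100% of cases for 7 of the genes and 99.96% for Tcl1. Because the STRT method reads the 5′ ends of transcripts, the 250 bases before a RefSeq transcript start (GRCm38.p6) are shown for 4 of them, of which Klk11 and 4930550L24Rik were high in MKOS intermediates and at 6.70 CPM or less in iPSCs and ESCs, and Tcl1 and Khdc3 were also high in iPSCs or ESCs. The windows of 4930550L24Rik and Khdc3 lie inside the gene as RefSeq bounds it, before the starts at 58911461 and 73102398. Capitals mark GGGTG (or CACCC on the other strand), the letters shared by many KLF sites.
Klk11 (chr7:43774367-43774616, plus strand): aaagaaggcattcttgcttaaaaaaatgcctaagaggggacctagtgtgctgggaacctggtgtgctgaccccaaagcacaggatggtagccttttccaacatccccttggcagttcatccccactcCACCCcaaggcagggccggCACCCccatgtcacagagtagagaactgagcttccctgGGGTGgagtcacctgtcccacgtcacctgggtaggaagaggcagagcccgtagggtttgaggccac
4930550L24Rik (chrX:58911211-58911460, plus strand): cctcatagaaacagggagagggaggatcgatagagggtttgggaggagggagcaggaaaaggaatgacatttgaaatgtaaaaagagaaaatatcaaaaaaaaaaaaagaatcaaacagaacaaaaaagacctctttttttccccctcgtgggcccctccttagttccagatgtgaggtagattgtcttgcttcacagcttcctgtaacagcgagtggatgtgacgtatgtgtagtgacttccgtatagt
Tcl1 (chr12:105222738-105222987, minus strand): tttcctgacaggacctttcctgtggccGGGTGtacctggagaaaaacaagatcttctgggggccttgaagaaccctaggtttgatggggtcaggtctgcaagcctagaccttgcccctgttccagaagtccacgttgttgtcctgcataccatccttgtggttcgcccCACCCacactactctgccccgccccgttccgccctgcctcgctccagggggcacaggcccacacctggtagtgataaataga
Khdc3 (chr9:73102148-73102397, plus strand): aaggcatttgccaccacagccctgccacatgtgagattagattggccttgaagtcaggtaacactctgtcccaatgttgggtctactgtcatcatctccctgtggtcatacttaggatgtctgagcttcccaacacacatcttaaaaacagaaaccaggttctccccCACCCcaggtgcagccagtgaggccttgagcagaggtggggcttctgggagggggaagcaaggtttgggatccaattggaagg
The window of Klk11 shown held the letters at 3 places, whereas a second window of Klk11, before a start at 43776329, held 0. The window of Tcl1 held them at 2 places and that of Khdc3 at 1, and that of 4930550L24Rik held none. RefSeq gives 10 such windows for 7 of the 8 genes, Slurp1 not among them, and 8 of the 10 held GGGTG on either strand, beside 52.0% of all 32851 windows of this length. The 10 are not separate, since 3 are those of Spink2, which overlap, and 2 of these share 1 match. CATTGT, a SOX motif, was in 1 of the 10, that of Gpa33, beside 10.7% of all windows. The POU octamer ATTTGCAT and the E-box CACGTG were in 0 of the 10, beside 1.60% and 6.02% of all. These matches are a description of letters and do not show binding.

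Across the 20 conditions the 8 genes followed 2 patterns. Slurp1, Klk11, Tie1, Spink2 and 4930550L24Rik had their highest mean in MKOS E-CAD+ 2NG- cells, then in MKOS E-CAD+ 3NG- cells, then in MKOS 3NG+ cells, and their means in the other 17 conditions were 5.77 CPM or less. Tcl1, Khdc3 and Gpa33 were present in MKOS intermediates but also in 3NG+ cells of both cassettes, iPSCs and ESCs. Khdc3 was low in part of these, with means of 7.49 CPM in MKOS E-CAD+ 2NG- cells and 2.90 CPM in D6 iPSCs. In the TNG-derived ESC lines its means were 1.05 to 4.88 CPM. Over all 48 libraries, Slurp1 was detected in 14, Tie1 in 18, Klk11 in 20, 4930550L24Rik in 25, Khdc3 in 33, Spink2 in 36, and Tcl1 and Gpa33 in 41 each.

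**Figure D1:**
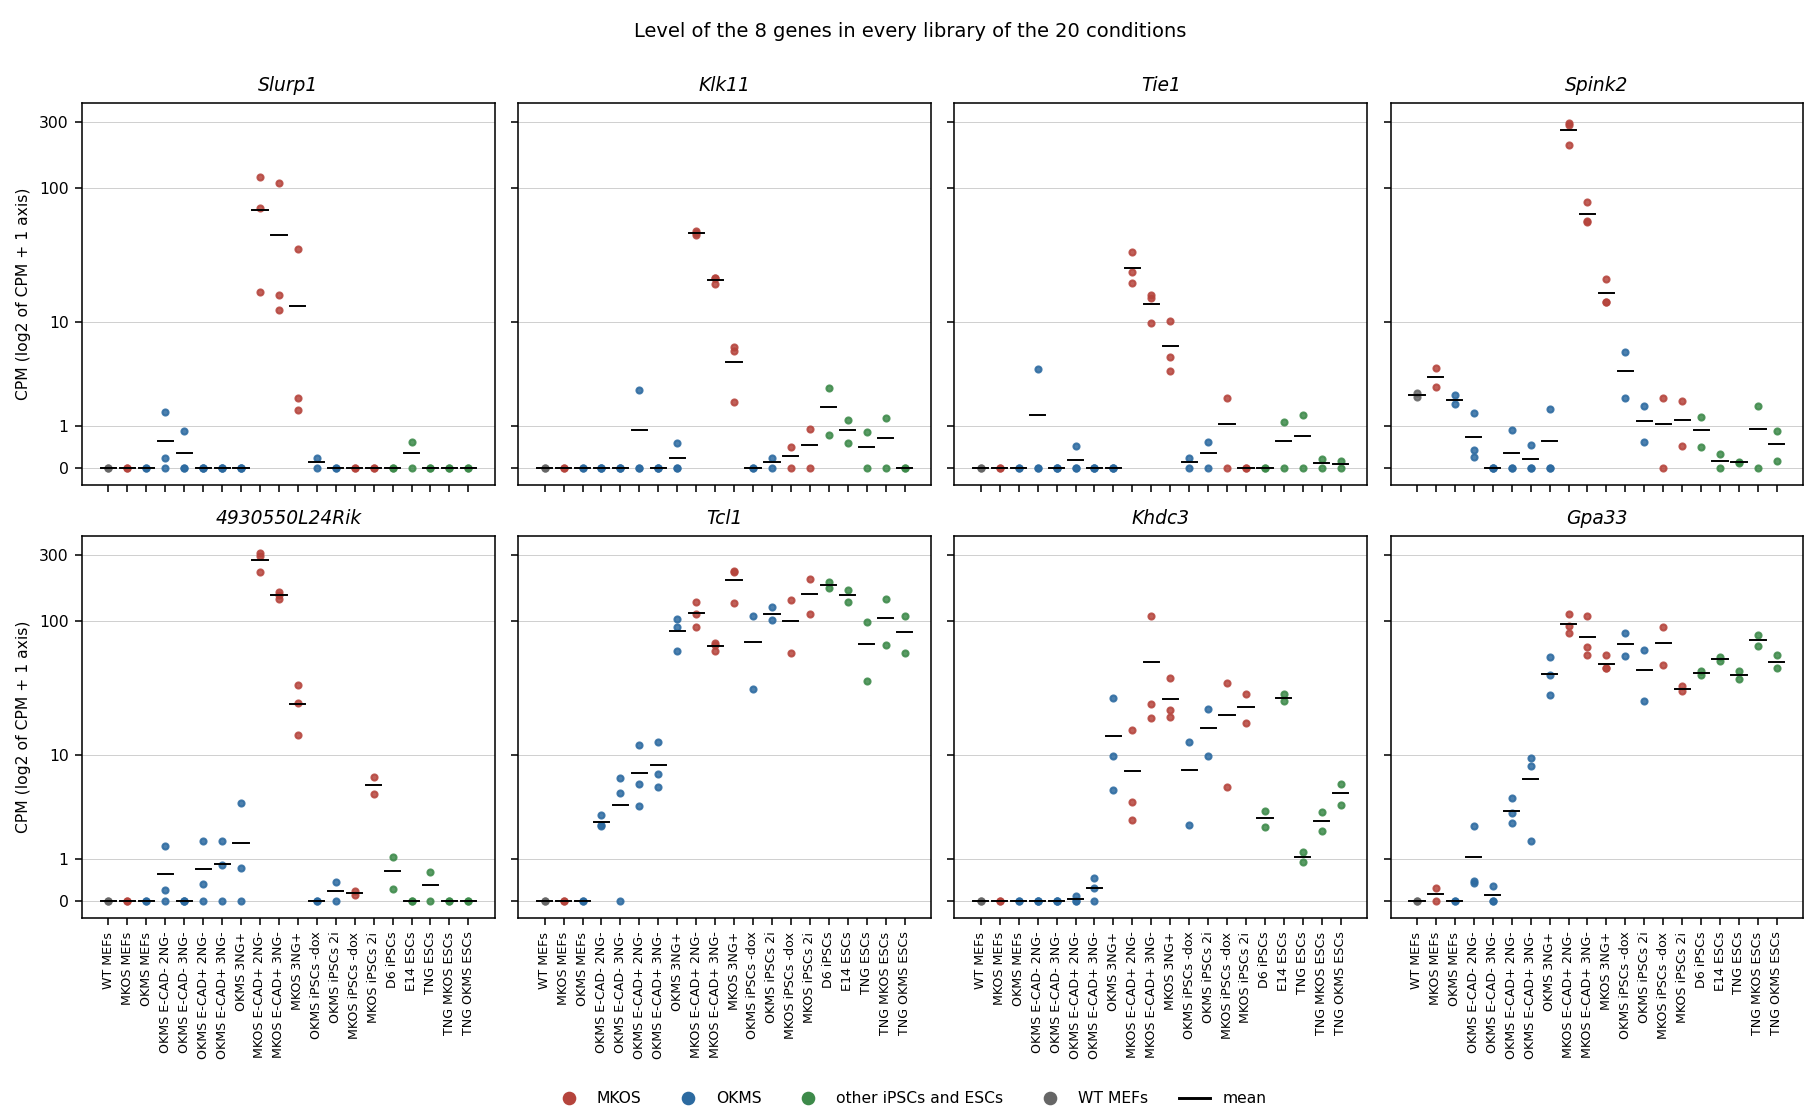
Level of each of the 8 genes (y axis, CPM on a log2 scale of CPM + 1) in every library, one point per library, over the 20 conditions (x axis), with the mean of each condition as a bar. The MKOS E-CAD+ NG- libraries of Slurp1, Klk11, Tie1, Spink2 and 4930550L24Rik lie above every library of the other conditions except MKOS 3NG+, and Tcl1, Khdc3 and Gpa33 also have high points in iPSCs and ESCs.

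Spink2 and 4930550L24Rik repeated well between libraries. In MKOS E-CAD+ 2NG- cells Spink2 was at 296, 285 and 206 CPM, and in MKOS E-CAD+ 3NG- cells at 57.8, 56.2 and 79.8 CPM. All 2NG- libraries thus lay above all 3NG- libraries, by a ratio of means of 4.05. 4930550L24Rik was at 294, 309 and 227 CPM in the 2NG- cells and at 155, 163 and 144 CPM in the 3NG- cells, again with no overlap. In the 6 OKMS E-CAD+ NG- libraries Spink2 had 17 reads in all, with a highest level of 0.847 CPM, and 4930550L24Rik had 41 reads, with a highest level of 1.69 CPM. Spink2 was the one of these 5 genes with reads in every MEF library, at 1.86 to 4.21 CPM, and 4930550L24Rik had no read in any of the 6.

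Klk11 and Tie1 were lower, with the same order. Klk11 was at 45.3, 48.4 and 46.9 CPM in MKOS E-CAD+ 2NG- cells and at 21.9, 19.7 and 22.0 CPM in the 3NG- cells, so that the 2NG- cells were 2.21 times higher and the libraries did not overlap. Tie1 was at 24.1, 34.4 and 20.1 CPM in the 2NG- cells and at 9.83, 16.2 and 15.5 CPM in the 3NG- cells, also with no overlap. Neither gene had a read in MEFs or in OKMS E-CAD+ 3NG- cells. Klk11 had 8 reads in the OKMS E-CAD+ 2NG- cells, all from replicate 2, and Tie1 had 6, all from replicate 3.

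Slurp1 varied more than any other of these 5 genes between libraries of 1 condition. It was at 120, 72.0 and 17.2 CPM in MKOS E-CAD+ 2NG- cells and at 108, 16.2 and 12.6 CPM in MKOS E-CAD+ 3NG- cells, and these libraries overlapped. Replicate 1 was the highest in both populations, and in 3NG+ cells too. No library of OKMS E-CAD+ NG- cells held a Slurp1 read, nor did any MEF library. With the 3 reads that a count of 0 allows over the 3 libraries, the mean of the MKOS cells was at least 537 times higher in the 2NG- gate and at least 299 times higher in the 3NG- gate. In a check added after the data were seen, these limits were 344 and 94.3 without MKOS replicate 1 of the gate, 208 without OKMS E-CAD+ 2NG- replicate 3 and 129 without OKMS E-CAD+ 3NG- replicate 1. The 5 reads of iPSCs and ESCs came from 2 of 18 libraries, and OKMS E-CAD- cells had 12 reads, at no more than 1.52 CPM.

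In OKMS E-CAD+ NG- cells Tcl1 and Gpa33 were present at lower levels, whereas Khdc3 was close to absent. Tcl1 was at 90.5, 113 and 138 CPM in MKOS E-CAD+ 2NG- cells and at 69.7, 60.9 and 66.8 CPM in the 3NG- cells, and ran from 3.75 to 12.7 CPM over the 6 OKMS E-CAD+ libraries. Gpa33 was at 81.5, 91.5 and 113 CPM in the MKOS 2NG- cells and at 65.2, 56.2 and 108 CPM in the 3NG- cells, and from 1.67 to 9.46 CPM in the OKMS cells. The MKOS and OKMS libraries of neither gene overlapped. Khdc3 was at 4.08, 2.80 and 15.6 CPM in the MKOS 2NG- cells and at 19.3, 24.9 and 108 CPM in the 3NG- cells, where replicate 3 stood apart, and had 7 reads in all over the 6 OKMS libraries. Khdc3 was thus the 1 of the 8 whose 3NG- mean, 50.7 ± 49.6 CPM (SD, n = 3), lay above its 2NG- mean, 7.49 ± 7.04 CPM (SD, n = 3), with no 2NG- library above the lowest 3NG- library.

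Ranked by fitted fold between the cassettes in E-CAD+ NG- cells, over 15630 genes, Slurp1 was 1st, Spink2 5th, Klk11 7th, Tie1 8th, 4930550L24Rik 10th, Khdc3 19th, Gpa33 271st and Tcl1 449th. The other genes of the first 10 were 4732456N10Rik, A730037C10Rik, Dnahc17, Scnn1b and Scnn1g. These genes and Slurp1 had no read in OKMS E-CAD+ NG- cells, so that their fitted fold and rank depend on the prior count. Scnn1b and Scnn1g encode subunits of the epithelial sodium channel, and were at means of 11.5 and 7.16 CPM in MKOS E-CAD+ 2NG- cells and at 0 in OKMS E-CAD+ NG- cells. Dnahc17, an axonemal dynein heavy chain, was at 18.1 CPM in the 2NG- and 4.92 CPM in the 3NG- MKOS cells and at 0 in the same OKMS cells.

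**Figure D2:**
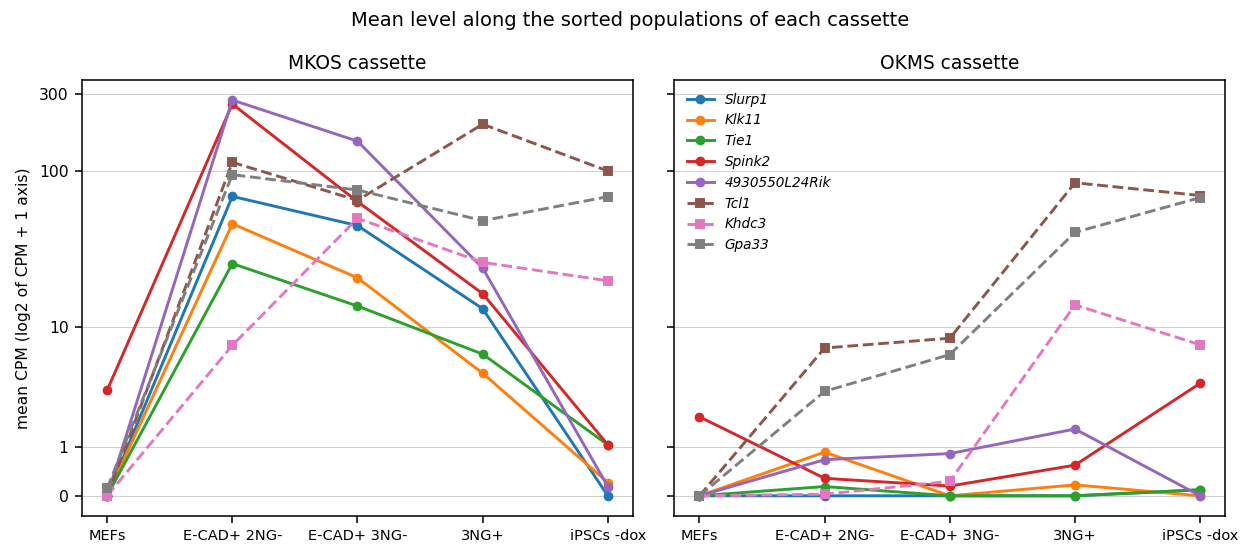
Mean level of each gene (y axis, CPM on a log2 scale of CPM + 1) in MEFs, E-CAD+ 2NG-, E-CAD+ 3NG- and 3NG+ cells and -dox iPSCs of the MKOS cassette (left) and the OKMS cassette (right), with solid lines for the 5 genes low in iPSCs and broken lines for Tcl1, Khdc3 and Gpa33. The solid lines of MKOS peak at E-CAD+ 2NG- and return to 1.06 CPM or less in iPSCs, and those of OKMS stay at 3.96 CPM or less throughout.

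The 3NG+ cells were not used to choose the genes, and served to ask whether the difference between the cassettes was still present once Nanog-GFP was on. In these cells Cdh1 was lower in MKOS (62.6 to 91.5 CPM) than in OKMS (106 to 151 CPM), with no overlap. Col1a2 was at 30.8 to 224 CPM in MKOS and 41.1 to 76.2 CPM in OKMS, which overlap. The part of Cdh1 and Col1a2 in the results below was not tested. All 8 passed the filter on low counts in the fit of all conditions, but Slurp1 did not when only the conditions compared entered. The call of Slurp1 thus rests on the fit of all conditions. Of the 8 genes, 3 were called by edgeR's quasi-likelihood test at a Benjamini-Hochberg adjusted p of at most 0.05 in MKOS against OKMS 3NG+ cells, Slurp1, Spink2 and 4930550L24Rik, beside 0.685% of the 15630 genes tested. All 3 were higher in MKOS, as were 0.345% of all genes. Spink2 was at 21.5, 14.4 and 14.3 CPM in MKOS and at 1.64, 0 and 0 CPM in OKMS 3NG+ cells, with no overlap (log2 fold change 4.26 ± 0.85 SE, adjusted p = 0.00707). 4930550L24Rik was at 14.3, 24.9 and 34.3 CPM in MKOS and at 4.04, 0 and 0.715 CPM in OKMS, with no overlap (3.42 ± 0.68, adjusted p = 0.0101). Slurp1 was at 36.2, 1.58 and 2.16 CPM in MKOS and had no read in OKMS, so that MKOS was at least 72.5 times higher by the 3-read floor over the group (adjusted p = 0.0360). Its level in MKOS rested on replicate 1, and without that library the limit was 10.2 and the adjusted p was 0.244. By DESeq2 Spink2 was the 1 gene of the 8 called (adjusted p = 0.0205), with adjusted p of 0.174 for 4930550L24Rik and 0.557 for Slurp1.

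The other 5 genes did not pass. Klk11 was at 6.31, 1.98 and 5.86 CPM in MKOS and at 0.504, 0 and 0 CPM in OKMS 3NG+ cells, with no overlap (log2 fold change 4.09 ± 1.41 SE, adjusted p = 0.208). Tie1 was at 10.3, 3.95 and 5.24 CPM in MKOS and had no read in OKMS, at least 35.4 times higher by the same floor (adjusted p = 0.0939). Tie1 was called when only these 6 libraries entered the fit (adjusted p = 0.0329), in which Slurp1 did not pass the filter and was not tested. Without OKMS 3NG+ replicate 1 or 3 the limits were 37.3 and 41.5 for Slurp1 and 18.2 and 20.3 for Tie1. Tcl1 was at 225, 230 and 135 CPM in MKOS and at 90.3, 104 and 60.5 CPM in OKMS, with no overlap (1.07 ± 0.48, adjusted p = 0.362). Khdc3 was at 22.3, 19.6 and 38.1 CPM against 5.17, 27.3 and 9.87 CPM and overlapped (0.89 ± 0.70, adjusted p = 0.628). Gpa33 was at 45.4, 45.2 and 56.4 CPM against 55.1, 28.7 and 40.3 CPM, and its log2 fold change of 0.06 ± 0.38 (adjusted p = 1.00) took the other sign when OKMS 3NG+ replicate 2 was left out (-0.14). Leaving out OKMS 3NG+ replicate 3 left 0 of the 8 called by edgeR's quasi-likelihood test, with adjusted p of 0.172 for Slurp1, 0.103 for Spink2 and 0.113 for 4930550L24Rik. Slurp1 was also not called without OKMS 3NG+ replicate 1 (adjusted p = 0.139) or replicate 2 (0.0760).

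**Figure D3:**
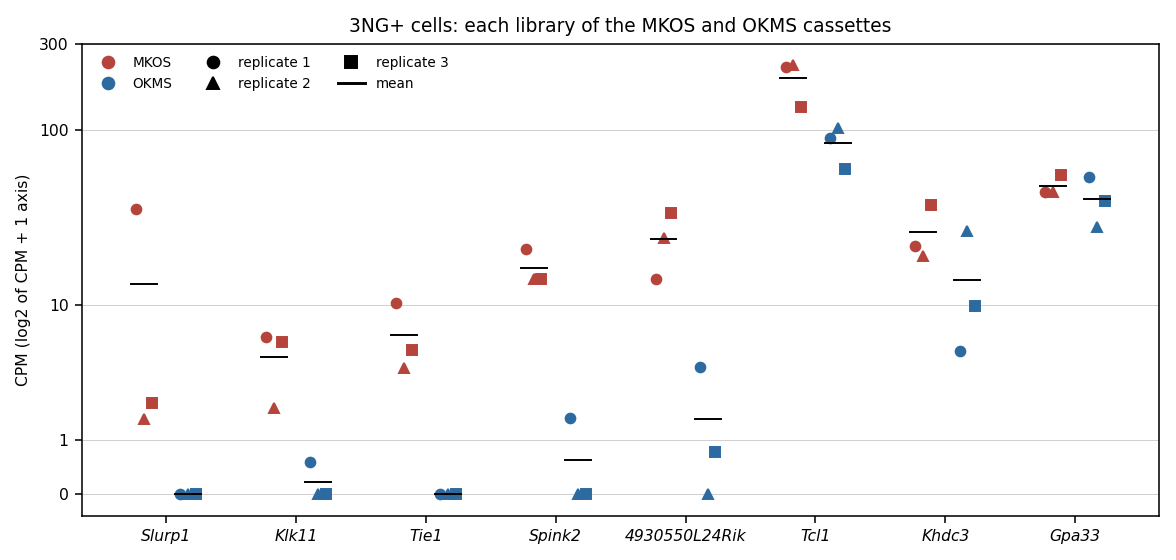
Level of the 8 genes (y axis, CPM on a log2 scale of CPM + 1) in each of the 3 MKOS and 3 OKMS 3NG+ libraries, with symbols for the replicate number and bars for the means. For Slurp1, Klk11, Tie1, Spink2, 4930550L24Rik and Tcl1 all MKOS points lie above all OKMS points, and for Khdc3 and Gpa33 they overlap.

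Compared with the E-CAD+ NG- cells of the same cassette, MKOS 3NG+ cells held a small part of the first 5 genes. The mean in 3NG+ cells was 10.2% of the mean of the 2 E-CAD+ NG- populations for Spink2, 11.4% for 4930550L24Rik, 13.9% for Klk11, 23.1% for Slurp1 and 32.5% for Tie1. It was 57.1% for Gpa33, 91.7% for Khdc3 and 219% for Tcl1. When each library was left out in turn, as added after the data were seen, the share of Slurp1 was 3.24% without MKOS 3NG+ replicate 1, that of Khdc3 was 180% without MKOS E-CAD+ 3NG- replicate 3, and no other share moved by more than 1.5 times. These shares are a description, since the E-CAD+ NG- libraries chose the genes. No 3NG+ library of Klk11, Spink2 or 4930550L24Rik reached the lowest E-CAD+ NG- library of MKOS, while for Tie1 and Slurp1 replicate 1 did.

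Between MKOS 3NG+ cells and MKOS iPSCs without doxycycline, 3 of the 8 genes were called, again Slurp1, Spink2 and 4930550L24Rik, beside 2.14% of all genes tested. All 3 were higher in 3NG+ cells, as were 1.32% of all genes. This comparison uses the same MKOS 3NG+ libraries as the one between the cassettes. The 3NG+ cells were sorted from culture with doxycycline, and the iPSCs were clones without it. Stage, doxycycline and sorting thus cannot be told apart, here or in the same comparison of OKMS cells. 4930550L24Rik had 1 read in each of the 2 iPSC libraries, a ratio of 174 with a counting interval of 56.8 to 1709 (adjusted p = 1.05e-04). Spink2 was at 0 and 2.13 CPM in the iPSCs (log2 fold change 4.20 ± 0.94 SE, adjusted p = 0.00926), and without iPSC replicate 1, the library with no read, the adjusted p was 0.253. Slurp1 had no read in the iPSCs, at least 67.8 times lower than in 3NG+ cells (adjusted p = 0.0283), and without MKOS 3NG+ replicate 1 the limit was 9.52 and the adjusted p 0.149. Without iPSC replicate 1 the limit was 25.0 and the adjusted p 0.281, and without replicate 2 they were 42.8 and 0.170. By DESeq2 Slurp1 was not called here (adjusted p = 0.536). Klk11, at 0.415 and 0 CPM in the iPSCs, gave 4.23 ± 1.56 (adjusted p = 0.178). Tie1, at 0 and 2.13 CPM, gave 2.65 ± 1.64 (adjusted p = 0.483). The fibroblast gene Col1a2 was at 30.8 to 224 CPM in the MKOS 3NG+ libraries and at 0.415 and 0.887 CPM in the iPSCs, highest in replicate 1 as Slurp1 was, and its part in these results was not tested.

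The log2 fold changes of Tcl1, Khdc3 and Gpa33 in this comparison were 1.00 ± 0.55, 0.44 ± 0.76 and -0.46 ± 0.41 (SE), with adjusted p from 0.410 to 0.877. In OKMS 3NG+ cells against OKMS iPSCs without doxycycline, 0 of the 8 genes were called by edgeR's quasi-likelihood test or by DESeq2, beside 0.614% of all genes, and 2 had an unadjusted p under 0.05. Slurp1 and Tie1 had 1 read each over these 5 libraries, Klk11 had 4 and 4930550L24Rik had 37, most of them in 1 library. These genes passed the filter through other conditions, so that the count bears on Spink2, Tcl1, Khdc3 and Gpa33. The 2 genes with an unadjusted p under 0.05 were Spink2 and 4930550L24Rik. Spink2 was at 1.64, 0 and 0 CPM in 3NG+ cells and 5.77 and 2.14 CPM in iPSCs (-2.32 ± 0.96, adjusted p = 0.320). 4930550L24Rik was at 4.04, 0 and 0.715 CPM in 3NG+ cells and had no read in iPSCs (adjusted p = 0.147). Tcl1, Khdc3 and Gpa33 gave 0.30 ± 0.54, 0.83 ± 0.80 and -0.67 ± 0.42.

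Whether the step from 3NG+ cells to iPSCs differed between the cassettes was tested as an interaction. In this step too, stage and doxycycline changed together and cannot be told apart. Spink2 was the 1 gene of the 8 that was called, beside 0.0640% of all genes, with a log2 difference of 6.52 ± 1.33 SE (adjusted p = 0.0374). Its level was higher in 3NG+ cells than in iPSCs for MKOS and lower for OKMS. The call was lost without any one of 5 libraries, with adjusted p of 0.0568 and 0.0550 without MKOS 3NG+ replicate 1 or 2, 0.0905 without OKMS 3NG+ replicate 3, 0.222 without MKOS iPSC replicate 1 and 0.221 without OKMS iPSC replicate 1. It was also lost when only these 4 conditions entered the fit (adjusted p = 0.217). Of the other genes Slurp1 had an unadjusted p of 0.0494 (adjusted p = 0.499).

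Tcl1, Khdc3 and Gpa33 are shared with established pluripotent cells. Tcl1 was at 31.8, 119 and 203 CPM (lowest, median and highest) over 10 iPSC libraries and at 36.5, 104 and 168 CPM over 8 ESC libraries, with no read in the 6 MEF libraries. Gpa33 was at 26.2, 45.9 and 90.5 CPM in iPSCs and 37.6, 52.7 and 79.2 CPM in ESCs, with 1 read in all in MEFs. Khdc3 was at 2.38, 11.2 and 35.0 CPM in iPSCs and at 0.887, 3.60 and 29.1 CPM in ESCs, with no read in MEFs. The ESC libraries of Khdc3 fell into separate ranges, with E14 at 29.1 and 25.9 CPM and the 6 TNG-derived libraries at 0.887 to 5.90 CPM. In ESCs against MEFs, 4 of the 8 genes were called, beside 60.1% of all genes, so that the count does not stand out from the background. Slurp1, Klk11, Tie1 and 4930550L24Rik had no read in MEFs and means of 0.845 CPM or less in every ESC line. They passed the filter through other conditions, so that the count and their p-values here say little of them. The share called higher in ESCs was 29.6% and that called lower was 30.4%. Tcl1 gave a log2 fold change of 12.43 ± 0.76 SE (adjusted p = 6.79e-17), Gpa33 10.75 ± 0.55 (2.21e-19) and Khdc3 7.98 ± 0.99 (1.68e-08), each higher in ESCs. The fitted values of Tcl1 and Khdc3 depend on the prior count, as MEFs held no read. Spink2 was lower in ESCs than in MEFs, at 0 to 1.76 CPM against 1.86 to 4.21 CPM (-3.10 ± 0.63, adjusted p = 5.80e-05). Tie1 was at 0 to 1.38 CPM in ESCs and at 0 in MEFs and did not pass (adjusted p = 0.0618), although it passed without E14 ESC replicate 1 (0.0446) or TNG ESC replicate 2 (0.0435).

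In the order of condition means, neighbours were often not separate. Tcl1 was highest in MKOS 3NG+ cells at 196 ± 53.3 CPM (SD, n = 3), followed by D6 iPSCs at 183, MKOS iPSCs in 2i at 157 and E14 ESCs at 153 CPM, and the libraries of each overlapped with those of the next. Gpa33 was highest in MKOS E-CAD+ 2NG- cells at 95.3 ± 15.9 CPM (SD, n = 3), then MKOS E-CAD+ 3NG- cells at 76.4, TNG MKOS ESCs at 72.4, MKOS iPSCs without doxycycline at 69.4 and OKMS iPSCs without doxycycline at 68.4 CPM, and again each overlapped with the next. Khdc3 followed the order MKOS E-CAD+ 3NG- cells, E14 ESCs, MKOS 3NG+ cells and MKOS iPSCs in 2i, from 50.7 to 23.4 CPM, with overlap at every step. For Klk11, Spink2 and 4930550L24Rik the first 2 places, MKOS E-CAD+ 2NG- and 3NG- cells, were separate from each other and from MKOS 3NG+ cells, and for Tie1 the first was separate from the second.

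The iPSC libraries were compared by cassette and by medium. In MKOS against OKMS iPSCs without doxycycline, 0 of the 8 genes were called by edgeR or by DESeq2, beside 0.0192% of all genes, and 1 had an unadjusted p under 0.05. Slurp1 had 1 read over these 4 libraries, 4930550L24Rik 2, Klk11 4, and Tie1 12 in 1 library and 1 in another, so that the count says little of them. The gene with the low p was Spink2, at 0 and 2.13 CPM in MKOS and 5.77 and 2.14 CPM in OKMS iPSCs (log2 fold change -2.26 ± 1.01 SE, adjusted p = 0.609). In iPSCs in 2i against iPSCs without doxycycline, 0 were called by edgeR, beside 4.34% of all genes, 1 was called by DESeq2, and 2 had an unadjusted p under 0.05. Slurp1 had no read in 2i, and Klk11 and Tie1 had means of 1.06 CPM or less in these conditions. The count thus says little of Slurp1, Klk11 and Tie1. Gpa33 was the 1 called by DESeq2 (adjusted p = 0.0404), and without OKMS iPSC 2i replicate 1 it was called by edgeR too (0.0403). It was at 33.3 and 30.6 CPM in MKOS and 61.5 and 26.2 CPM in OKMS iPSCs in 2i, against 90.5 and 48.3 and 81.7 and 55.2 CPM without doxycycline (-0.99 ± 0.33, edgeR adjusted p = 0.0789). 4930550L24Rik was at 6.70 and 4.84 CPM in MKOS iPSCs in 2i, at 0.352 and 0 CPM in OKMS iPSCs in 2i and at 0.177 CPM or less without doxycycline (4.33 ± 1.89, adjusted p = 0.215). In MKOS against OKMS MEFs, before induction, 6 of the 8 genes had no read and Gpa33 had 1, so that the test bears on Spink2 alone. Spink2 was at 2.76 and 4.21 CPM in MKOS and 1.86 and 2.29 CPM in OKMS MEFs and was not called (log2 fold change 0.76 ± 0.91 SE, adjusted p = 1.00), beside 0.102% of all genes.

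The E-CAD- cells of OKMS reprogramming held little of the 8 genes. In OKMS E-CAD- NG- cells against OKMS MEFs, 2 of the 8 were called, beside 24.8% of all genes (12.0% higher and 12.8% lower), so that the count lies at the background. Klk11 and Khdc3 had no read in either group. Slurp1, Tie1, 4930550L24Rik and Gpa33 had none in OKMS MEFs and means of 1.37 CPM or less in the E-CAD- cells. These genes passed the filter through other conditions, so that the count says little of them. Tcl1 was higher, at 2.47, 3.09 and 2.45 CPM in 2NG- and 0, 6.62 and 4.90 CPM in 3NG- cells against no read in OKMS MEFs (log2 fold change 7.27 ± 1.70 SE, adjusted p = 0.00131). Spink2 was lower, at 0.190, 0.343 and 1.47 CPM in 2NG- cells and 0 in 3NG- cells against 1.86 and 2.29 CPM in OKMS MEFs (-4.16 ± 1.30, adjusted p = 0.0152). Without OKMS MEF replicate 2 neither passed, with adjusted p of 0.0584 and 0.0862. Khdc3 and Klk11 had no read in these 6 libraries, and Gpa33 had 12.

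The genes most like each of the 8 were found by Pearson's r of log2(mean CPM + 1) over the 20 conditions, among 12955 genes. As the 8 share 1 condition with high values, these r are a description. Slurp1 was most like Tie1 (r = 0.972), 4930550L24Rik (0.955) and Klk11 (0.951). Klk11 was most like Slurp1, 4930550L24Rik (0.942) and Nccrp1 (0.940), and Tie1 was most like Slurp1, Nccrp1 (0.935) and Gm13752 (0.932). Spink2 was most like Slurp1 (0.932), Kiss1r (0.930) and A730037C10Rik (0.913), and 4930550L24Rik was most like Slc16a5 (0.961), Gm13752 (0.960) and Slurp1. Tcl1 was most like Lrrc34 (0.982), the nuclear receptor gene Esrrb (0.973) and Zfp710 (0.966). Khdc3 was most like 2410137M14Rik (0.900), Tmem231 (0.892) and 2210010C17Rik (0.890). Gpa33 was most like a gene whose symbol the file holds in the form of a date (0.982), Nhedc1 (0.967) and Rps6ka1 (0.964). By Spearman's rho, 0 of these 24 pairs were among the first 3 of their gene.

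The families of the 8 genes were then followed in the E-CAD+ NG- contrast itself, in the libraries that chose the 8. The relatives were listed with earlier results of these data known, so that their shares are a description and no separate support. Of 100 relatives listed, 97 were in the file and 59 were tested, and 18 of the 59 were called, 15 higher and 3 lower in MKOS, which is 30.5% beside 11.9% of all genes, of which 6.69% were higher and 5.20% lower. By a match of 39 genes, the study's own averages leave out 7 sorted libraries, replicate 3 of each NG- population and OKMS 3NG+ replicate 2. Without these libraries, 11 relatives were called, beside 1208 of all 15432 genes tested there, in place of 1858 of 15630. In the Ly6/uPAR family of Slurp1, 20 of 29 listed relatives were tested and 7 were higher and 1 lower in MKOS, with a median log2 fold change of 1.23 beside 0.02 over all genes. Ly6a, the stem cell antigen Sca-1, stood at means of 515 and 450 CPM in MKOS 2NG- and 3NG- cells against 30.2 and 107 CPM in OKMS (log2 fold change 2.98 ± 0.43 SE, adjusted p = 3.61e-06). Ly6a was also read in MEFs, at 180 CPM in WT MEFs. Ly6c1 (3.45), Ly6c2 (3.40), Ly6i (5.70) and Ly6g6e (1.37) were likewise higher. Ly6c1, Ly6c2 and Ly6i are near-identical neighbours whose reads may be split between them. Cd59a, an inhibitor of complement and named here after its value was seen, was the 1 relative that was lower (-0.80).

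Among the kallikreins 6 of 18 listed relatives of Klk11 were tested, and Klk10 (log2 fold change 5.31 ± 0.77 SE, adjusted p = 5.94e-06), Klk8 (2.49 ± 0.27, 2.40e-08) and Klk13 (4.31 ± 1.04, 0.00616) were higher in MKOS, with a median of 3.30. Klk10 was at means of 81.5 and 43.9 CPM in MKOS 2NG- and 3NG- cells, 1.86 and 1.21 CPM in OKMS and 0 in all MEFs. Klk8 was at 142 and 87.5 CPM in MKOS against 17.2 and 19.4 CPM in OKMS, and 30.5 and 23.3 CPM in the MKOS and OKMS 3NG+ cells. The summed level of the 18 kallikreins was 137 to 259 CPM over the 6 MKOS E-CAD+ NG- libraries and 17.4 to 27.1 CPM over the 6 of OKMS, with no overlap. Of the Spink inhibitors 4 of 11 were tested, and they did not follow 1 direction. Spink6 was higher (adjusted p = 0.00880), with 0 reads in OKMS E-CAD+ NG- cells and 2.72 CPM in WT MEFs. Spink3 was lower (-7.97 ± 1.05, adjusted p = 9.21e-07), with means of 0.832 and 4.63 CPM in MKOS against 365 ± 599 and 539 ± 670 CPM (SD, n = 3) in OKMS. Spink10 was lower too (-1.46 ± 0.42, adjusted p = 0.0169).

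**Figure D4:**
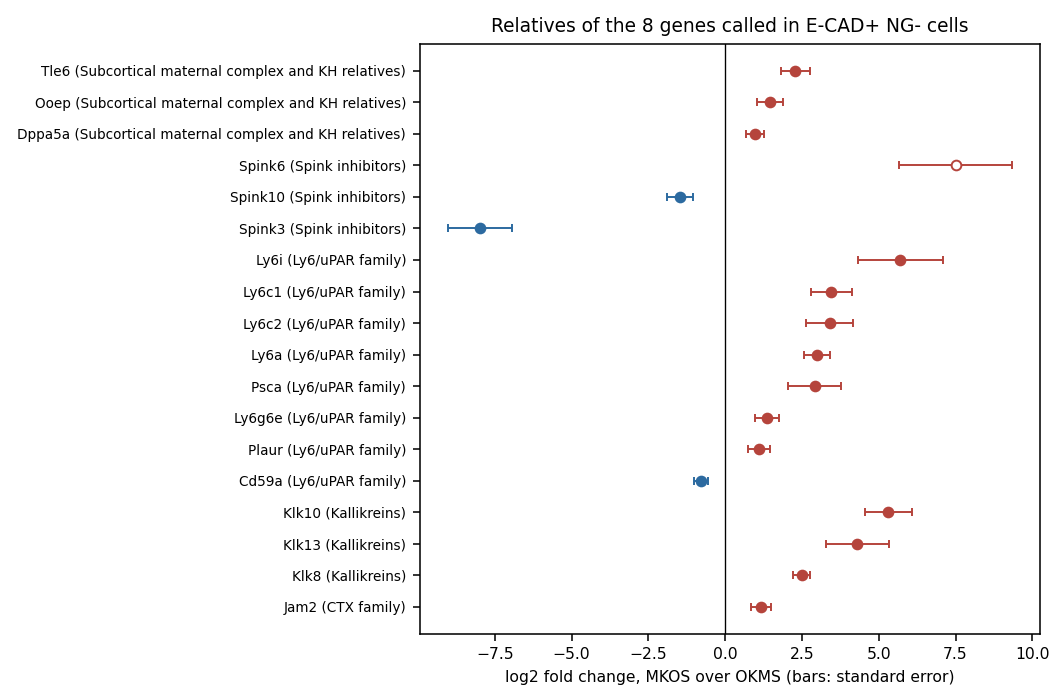
Log2 fold change of MKOS over OKMS in E-CAD+ NG- cells (x axis) with its standard error for the 18 called relatives of the 8 genes, grouped by family. Red marks the 15 higher in MKOS and blue the 3 lower, and an open symbol, that of Spink6, marks a gene with no read in 1 of the cassettes, whose fitted value depends on the prior count.

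Of the subcortical maternal complex and KH relatives of Khdc3, 5 of 10 were tested and 3 were higher in MKOS, Tle6 (log2 fold change 2.29 ± 0.48 SE, adjusted p = 9.68e-04), Ooep (1.46 ± 0.42, 0.0163) and Dppa5a (0.98 ± 0.29, 0.0222), the last also being a marker of ESCs. Of the CTX family of Gpa33, 8 of 10 were tested, and Jam2, a junctional adhesion molecule, was higher (1.16 ± 0.33, adjusted p = 0.0144). Of the Tcl1 family 1 of 6 was tested and 4 had no read in any library, and of the AKT kinases and regulators 9 of 9 were tested, with 0 called in either list. Of the angiopoietin and Tie genes 6 of 7 were tested and 0 were called in E-CAD+ NG- cells. In MKOS against OKMS 3NG+ cells Angpt1, a ligand of Tek, was lower, with no read in MKOS and 1.84 ± 1.77 CPM (SD, n = 3) in OKMS (adjusted p = 0.0233), and 0 relatives of the other 7 genes were called.

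Markers of other cell types were counted in the same contrast. Of 7 MEF markers, 4 were higher in MKOS, Col1a2 (log2 fold change 1.93 ± 0.32 SE, adjusted p = 3.33e-05), Col1a1 (1.91), Postn (2.08) and Col3a1 (1.27), and their summed level was 350 to 933 CPM in MKOS against 68.7 to 275 CPM in OKMS E-CAD+ NG- cells, and 2977 to 5223 CPM in MEFs. Of the 8 genes, 6 had no read in MEFs, Gpa33 had 1 and Spink2 was at 4.21 CPM or less. Of 6 ESC markers, 4 were higher in MKOS, Zfp42 (2.42), Esrrb (1.94), Pou5f1 (1.56) and Dppa5a (0.98), with summed levels of 2970 to 10174 CPM against 795 to 5513 CPM, which overlap. The part of the ESC markers in the values of Tcl1, Khdc3 and Gpa33 was not tested.

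Endothelial markers were counted beside Tie1. Of 8 such markers, Cdh5 and Emcn had no read in MKOS E-CAD+ NG- cells, and the summed level of the list was 12.3 to 27.4 CPM there and 30.3 to 53.1 CPM in OKMS, where Cldn5 (log2 fold change -3.77 ± 1.06 SE, adjusted p = 0.0156) and Egfl7 (-0.79 ± 0.26, 0.0419) were higher. Of 9 keratinocyte markers 6 were tested, and Sbsn (2.94 ± 0.60, adjusted p = 7.65e-04), Krt14 (2.93 ± 0.88, 0.0248) and Ivl (adjusted p = 0.0152, with no read in OKMS) were higher in MKOS. The summed level of the keratinocyte list was 153 to 600 CPM in MKOS and 23.8 to 901 CPM in OKMS, and overlapped. Sbsn, a secreted protein of the epidermis, was also higher in MKOS 3NG+ cells (5.49 ± 1.32, adjusted p = 0.0345). Of 7 intestinal markers 4 were tested, and Vil1 was lower in MKOS, with no read there (adjusted p = 0.0232). Of 8 oocyte markers 2 were tested, and Zp3 was higher in MKOS (2.28 ± 0.75, adjusted p = 0.0414). Of 6 blood markers 5 were tested and 0 were called in E-CAD+ NG- cells, and Laptm5 was higher in MKOS 3NG+ cells (2.67 ± 0.64, adjusted p = 0.0354). The part of the keratinocyte and other markers in the values of the 8 genes was not tested.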

How the data were processed

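Libraries were made with the STRT method, which reads the 5′ ends of polyadenylated transcripts. The authors aligned reads with Bowtie 0.12.7 and deposited 1 table of raw counts per transcript for 48 libraries, which was used here. The methods name the mouse genome mm9 and the labels mm10, and 99.0% of 20688 symbols of the table lay within their GRCm38.p6 gene, so positions are given in GRCm38. No molecular identifiers were named, so PCR copies are counted as reads, and intervals and floors cover counting error only. The 1554 repeat and 104 spike-in entries were left out, which leaves 24264 transcripts and 1429717 to 14174725 reads per library (median 6243254.5).

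Counts were tested with edgeR 4.0.16 (R 4.3.3), by TMM scaling and the quasi-likelihood F test. One model held all 48 libraries and 20 conditions, and 15630 genes passed edgeR's default filter on low counts. Genes were called at a Benjamini-Hochberg adjusted p of at most 0.05, and the standard error is the log2 fold change over the square root of F. A fold change against a condition with no reads depends on the prior count and is no bound, so a floor of 3 reads over the condition was used there for ratios of means. Alternatives were DESeq2 1.42.0, its size factors in edgeR, no filter, the compared conditions alone, the replicate number as a block, each library left out in turn (with the genes and the trended dispersions of the full fit), and 7 sorted libraries left out. Scripts were tested on simulated data. Python 3.11.15, pandas 2.3.3, NumPy 2.4.6, SciPy 1.17.1 and Matplotlib 3.10.9 were used. RefSeq gave positions and promoter windows.

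The 8 genes and all lists were chosen with earlier results of these data known. Other genes named are the 3 with the highest Pearson's r to each of the 8 (among genes with a mean of at least 1 CPM), up to 5 called per list by smallest adjusted p, the first 10 by fitted fold in the E-CAD+ NG- contrast and 4 genes that check the labels.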

Additional observations from a re-analysis of the deposited data

Results flagged for a closer look

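Spink2 was called in the test of whether the step from 3NG+ cells to iPSCs without doxycycline differed between the cassettes (edgeR interaction, log2 difference 6.52 ± 1.33 SE, adjusted p = 0.0374). The call was lost under 6 of 16 alternatives, among them single libraries left out and the compared conditions alone. Stage and doxycycline changed together in this step. In OKMS cells the step by itself was not called (edgeR adjusted p = 0.320). In MKOS cells Spink2 was at 21.5, 14.4 and 14.3 CPM in 3NG+ cells and at 0 and 2.13 CPM in iPSCs, higher in every 3NG+ library. In OKMS cells it was at 1.64, 0 and 0 CPM in 3NG+ cells and at 5.77 and 2.14 CPM in iPSCs, lower in every 3NG+ library. The OKMS values rest on 13 reads in 3NG+ cells, all from replicate 1, and 40 reads in iPSCs.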

How the results depend on the processing

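Alternatives were computed for 18 log2 fold changes, those of the 8 genes in MKOS against OKMS 3NG+ cells and those called in other comparisons. Of their 251 values, 223 kept their direction and their side of the threshold, 21 kept the direction but no longer passed, 4 passed where the reported value did not, and 3 changed sign. Over all comparisons, 12 results that were not called passed under at least 1 alternative, with 12 of 19 such values coming from the fit with no filter on low counts. The 3 that changed sign were those of Gpa33 in MKOS against OKMS 3NG+ cells, reported as 0.06, at -0.15 without 7 sorted libraries, and at -0.14 and -0.07 without OKMS 3NG+ replicate 2 and MKOS 3NG+ replicate 3, within a range of -0.14 to 0.34 when 1 library was left out. With no filter on low counts, which took 19768 genes into the test, 6 of the 8 genes were called in that comparison, 5 in MKOS 3NG+ cells against iPSCs, 2 in OKMS 3NG+ cells against iPSCs, 2 in the difference between these steps, 1 in MKOS against OKMS iPSCs and 2 in iPSCs in 2i against iPSCs without doxycycline. Over all genes, that fit called 484 in place of 107, 799 in place of 335, 384 in place of 96, 228 in place of 10, 135 in place of 3 and 1025 in place of 679 in these comparisons. By DESeq2, 1 was called in MKOS against OKMS 3NG+ cells and 1 in iPSCs in 2i. With the compared conditions alone, 0 were called in the difference between the steps (1 by DESeq2 with all conditions) and 1 in OKMS E-CAD- NG- cells against MEFs. Without the 7 sorted libraries, 1 was called in OKMS 3NG+ cells against iPSCs, 1 in iPSCs in 2i, and 11 relatives in E-CAD+ NG- cells in place of 18. For these counts the cause was not tested.

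When each library was left out in turn, the 8 genes gave 0 to 3 calls in MKOS against OKMS 3NG+ cells, 1 to 3 in MKOS 3NG+ cells against iPSCs, 0 to 1 in the difference between the steps, 0 to 2 in OKMS E-CAD- NG- cells against MEFs, 4 to 5 in ESCs against MEFs and 0 to 1 in iPSCs in 2i. They gave 0 in all others, and the relatives gave 14 to 18. With the replicate number as a block, the counts of the 8 genes were 3, 3, 0, 1, 4, 2, 0, 0 and 0, as in the fit without it, and 20 relatives were called in place of 18. The numbers were not taken to pair the sorted libraries, since 23 of 84 same-numbered pairs, not all, had a correlation of deviations over 0.1, with a mean of 0.081 and a range of -0.041 to 0.352. Of 168 differently numbered pairs 2 did, with a mean of -0.040, so that same-numbered libraries were more alike on average, a hint from the data and not from the design. Of 112 condition means of the 8 genes above 0, 106 moved by less than 1 SD under TMM scaling, by ratios of 0.838 to 1.17 over all. The genes most like each of the 8 depended on the measure, since 0 of 24 remained by Spearman's rho. In the shallowest library a count of 0 allows up to 2.10 CPM.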
